A study of Mus musculus with 3 samples.

Results

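The miR-23/27/24 family of mouse was followed here through all of its listed mature arms. They were taken by name, as every listed arm of miR-23a, miR-23b, miR-27a, miR-27b and miR-24, and they numbered 11 of the 693 miRNAs in the files. The family was selected on its rpm values and log2 ratios in these same 3 libraries, so the levels and ratios of its arms are given as a description and without a test.

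Short RNA was sequenced from TAG1 cells, a mouse ES cell line in which doxycycline (Dox) induces Alk4*, a constitutively active receptor that phosphorylates Smad2/3. The Control library came from untreated cells, in which Smad2/3 were active, grown in medium with FBS. For the SB library, cells were treated during 16 hrs with an inhibitor of Smad2/3 activation at 30 µM (SB, written SB-431541 in the labels and SB-431542 in the methods). The Dox library came from cells given the same 16 hrs of SB and then 12 hrs of 1 µg/µl Dox. Both treated cultures were in KSR, a serum replacement, in place of FBS, so medium and treatment cannot be told apart in any comparison with Control. From SB to Dox, the cells were also 12 hrs longer in culture and were exposed to Dox itself. Neither can be told apart from the induction of Alk4*. The study checked the effect of Dox by qPCR in the parental J1 line, which lacks the inducible receptor, but for none of these arms. There was 1 library per condition, of 1 cell line, and no difference below has a replicate check.

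A miRNA hairpin is cut from a longer primary transcript and yields a 5p and a 3p strand. Usually one of them, the guide, is kept by an Argonaute protein while the other, the passenger, is degraded. A guide recognises its mRNA targets mainly through its seed, bases 2 to 8. The family is made from a pair of clusters, each holding a miR-23, a miR-27 and a miR-24 hairpin in that order, and 3p strands are its usual guides. Below, guide and passenger are used only as names for the 3p and the 5p strands of the family, whichever had more reads. Loading into Argonaute was not measured. Family members are known as regulators of differentiation, and components of TGF-β signaling, Smads and the Alk4 receptor included, are among their described targets.

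On GRCm38 the hairpins of miR-23a, miR-27a and miR-24-2 span 404 bases at chr8:84208518-84208921 (+ strand), with 79 and 56 bases between neighbours. GENCODE places no gene of that strand over miR-23a or miR-27a, and the lincRNA Gm26532 overlaps the end of miR-24-2. The hairpins of miR-23b, miR-27b and miR-24-1 are spread over 792 bases at chr13:63300484-63301275 (+ strand), with 154 and 423 bases between neighbours. They stand within introns of the 4 protein-coding transcripts of 2010111I01Rik that span them, while exons of that gene's transcripts annotated for nonsense-mediated decay overlap miR-27b and miR-24-1, the latter along with exons of a retained-intron and a processed transcript. On the opposite strand lie Fancc on chromosome 13 and hairpins of miR-3074, none of whose arms was listed, across from each miR-24 hairpin.

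The mature sequences show which arms can be told apart by their reads. The following are the strands of the chromosome 8 cluster (RefSeq, GRCm38.p6), 5′ to 3′, with the seed in capitals.
miR-23a-5p: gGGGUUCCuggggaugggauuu
miR-23a-3p: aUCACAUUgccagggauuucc
miR-27a-5p: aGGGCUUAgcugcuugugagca
miR-27a-3p: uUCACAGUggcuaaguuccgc
miR-24-2-5p: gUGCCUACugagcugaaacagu
The strands of the chromosome 13 cluster with a RefSeq entry, and miR-24-3p, which the miR-24-1 and miR-24-2 hairpins encode alike, are shown in the same way.
miR-23b-5p: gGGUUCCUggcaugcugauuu
miR-27b-5p: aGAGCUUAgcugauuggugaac
miR-27b-3p: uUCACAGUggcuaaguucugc
miR-24-1-5p: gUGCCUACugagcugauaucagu
miR-24-3p: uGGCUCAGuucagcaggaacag

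RefSeq gave a mature sequence for 10 of the 11 arms, miR-23b-3p being the one named only. miR-27a-3p and miR-27b-3p have the same seed and the same first 18 bases, and they differ by C19U (the miR-27a-3p base first, counted from its 5′ end), so a read that ends before that base fits both. The first 18 bases of miR-23a-3p likewise stand in the miR-23b hairpin, so the shortest 3p reads of miR-23a and miR-23b cannot be told apart either. This bears on each split of guide reads between the clusters and on the 5p shares given for these 4 hairpins. The passenger strands of the same hairpins differ more. miR-23a-5p and miR-23b-5p share a run of 10 bases, ggguuccugg, but the run starts at base 2 of the first and base 1 of the second. Their seeds are therefore unlike: the seed of miR-23b-5p stands at bases 3 to 9 of miR-23a-5p. Among the 516 listed miRNAs with a RefSeq sequence, no miRNA outside the family had the seed of a family arm.

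The place of the 5p strand in the hairpin is shown for miR-23a and miR-23b, the hairpins whose strands differed most in their ratios. Capitals mark the 5p strand, and the hairpins lie at chr8:84208518-84208592 and chr13:63300484-63300557 (GRCm38, + strand).
Mir23a: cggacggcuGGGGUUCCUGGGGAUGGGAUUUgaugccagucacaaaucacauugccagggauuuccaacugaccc
Mir23b: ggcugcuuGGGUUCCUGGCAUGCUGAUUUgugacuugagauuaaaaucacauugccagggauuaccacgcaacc

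Levels are in rpm, the reads of a miRNA brought by the authors to a library of 1000000 reads. A single read was worth 0.0913 rpm in Control, 0.0881 rpm in SB and 0.101 rpm in Dox. The listed miRNAs held 3102292, 2739358 and 3302828 reads in these libraries. All 9 miRNAs of the miR-290 and miR-302 clusters checked as marks of ES cells were listed, and 9, 8 and 7 of them stood above the library median, the lowest being miR-302a-3p. Ratios are log2 ratios of rpm, and intervals are 95% exact intervals that cover counting error only, since reads are not independent molecules. A miRNA was called higher or lower by the study's criteria, which ask for a 1.25-fold difference together with a Z-score of 1.96 or more in size. The Z-score sets the reads of a pair of libraries against each other and says nothing on the spread between cultures of a condition.

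The 3p strands made up most of the family's level in each library, while the 5p strands of miR-23a, miR-23b and miR-27b were lower in SB and then higher in Dox. Summed over the family, the 5 listed 3p arms had 1383 rpm in Control, 1598 rpm in SB and 1983 rpm in Dox. The 6 listed 5p arms had 139.6 rpm, 61.3 rpm and 367.8 rpm, of which 102.9, 34.3 and 302.9 rpm were miR-23a-5p and miR-23b-5p. The 5p arms thus held 9.17%, 3.70% and 15.6% of the family's rpm in the 3 libraries, lowest in SB and highest in Dox.

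miR-23a-3p, the most abundant member, had 739 rpm (723 to 755) in Control, 862 rpm (845 to 879) in SB and 895 rpm (877 to 914) in Dox. Its log2 ratio of SB over Control was 0.22 and that of Dox over SB was 0.05. It was not called in either comparison. The second ratio was below 0 under all 5 other scalings of the libraries, so that its direction depended on the scaling. It ran from −0.41 with reads on listed miRNAs as the base to −0.004, or almost no change, when scaled to miR-26a-5p. miR-23b-3p had 106.1, 99.2 and 95.6 rpm, with log2 ratios of −0.10 (−0.22 to 0.02) and −0.05 (−0.18 to 0.07). Under the scaling of the authors its levels in neighbouring conditions were thus not told apart by counting error, while its ratio of Dox over SB was −0.52 with reads on listed miRNAs as the base.

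The miR-27 guides were higher in Dox than in SB. miR-27a-3p had 160.9 rpm in Control, 210.4 rpm in SB and 382.7 rpm in Dox. Its log2 ratios were 0.39 (0.30 to 0.48) and 0.86 (0.79 to 0.94), so that it was called higher in each step. Scaled to miR-26a-5p, the first ratio was 0.14 and its call was lost. miR-27b-3p had 115.5, 104.0 and 195.8 rpm, with log2 ratios of −0.15 (−0.27 to −0.04) and 0.91 (0.81 to 1.02). It was called only from SB to Dox, except that with the libraries scaled to miR-26a-5p it was also called lower in SB (−0.39). Together these strands with a common seed had 276.4, 314.4 and 578.5 rpm.

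miR-24-3p comes from both clusters, and its reads cannot be split between them. It had 261.8 rpm in Control, 322.3 rpm in SB and 413.9 rpm in Dox, with log2 ratios of 0.30 (0.23 to 0.37) and 0.36 (0.30 to 0.43). The second passed the criteria under the scaling of the authors, but under none of the 5 other scalings and not with a fold threshold of 1.5. The median of all listed miRNAs was −0.19 for SB over Control and 0.38 for Dox over SB, so the second ratio of miR-24-3p was close to that of the median miRNA. Its direction turned with the scaling: it was −0.11 when reads on listed miRNAs were the base, −0.019 with median-of-ratios factors and −0.024 with TMM factors.

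**Figure D1:**
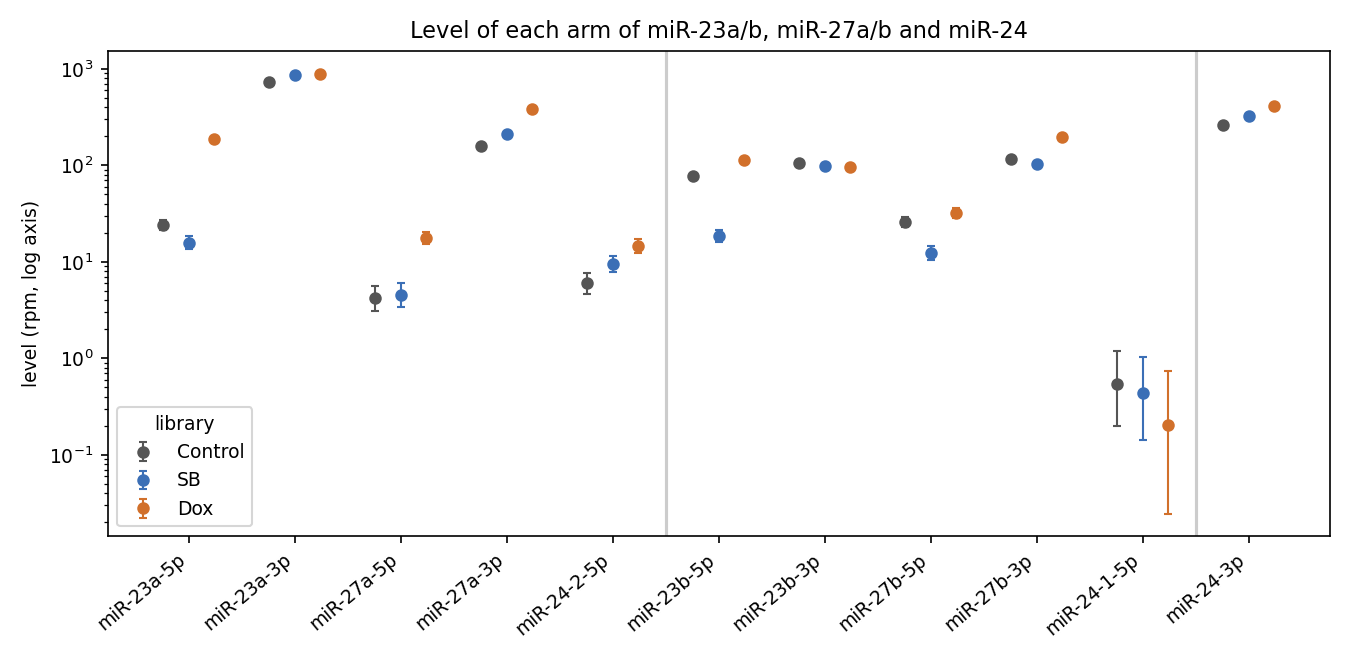
Level (rpm, log axis) of each listed arm in the Control, SB and Dox libraries, 1 point per library with its 95% exact Poisson interval (counting error only). Grey lines part the chromosome 8 arms (left), the chromosome 13 arms and miR-24-3p, which comes from both; miR-23a-5p goes from 15.9 rpm in SB to 187.7 rpm in Dox while miR-23a-3p stays between 739 and 895 rpm.

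miR-23a-5p, the passenger of miR-23a, had 24.3 rpm (21.4 to 27.4) in Control, 15.9 rpm (13.6 to 18.3) in SB and 187.7 rpm (179.2 to 196.4) in Dox. These values rest on 266, 180 and 1857 reads. SB was the lowest library and Dox the highest, and no interval overlapped another. The log2 ratio of SB over Control was −0.62 (−0.90 to −0.34). That of Dox over SB was 3.57 (3.34 to 3.79), an 11.8-fold higher level, and 3 of the 693 listed miRNAs had a higher ratio.

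miR-23b-5p had 78.6 rpm (73.4 to 84.0) in Control, 18.5 rpm (16.1 to 21.2) in SB and 115.2 rpm (108.6 to 122.1) in Dox, from 861, 210 and 1140 reads. It was 4.25-fold lower in SB than in Control, a log2 ratio of −2.09 (−2.31 to −1.87), and 6.23-fold higher in Dox than in SB, a log2 ratio of 2.64 (2.43 to 2.86). Only 0.866% of the listed miRNAs had a lower ratio of SB over Control, and 11 miRNAs had a higher ratio of Dox over SB. It was the family arm with the deepest fall after SB.

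From SB to Dox the passengers of miR-27 had lower ratios than those of miR-23. miR-27b-5p had 25.9, 12.4 and 32.2 rpm, with log2 ratios of −1.06 (−1.36 to −0.77) and 1.38 (1.09 to 1.67). miR-27a-5p had 4.20 rpm in Control, 4.58 rpm (3.42 to 6.01) in SB and 17.8 rpm (15.3 to 20.6) in Dox, from 46, 52 and 176 reads. Its log2 ratio of SB over Control was 0.13, with an interval from −0.48 to 0.73, and a change was not detectable at this depth. From SB to Dox it was 3.88-fold higher, a log2 ratio of 1.96.

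The 5p strands of miR-24 were among the least abundant arms. miR-24-2-5p had 6.02 rpm in Control, 9.51 rpm in SB and 14.8 rpm in Dox, with log2 ratios of 0.66 (0.20 to 1.12) and 0.63 (0.26 to 1.01), and was called higher in each step, like miR-27a-3p. The call in SB was lost when the libraries were scaled to miR-26a-5p (0.42), and the call in Dox was lost under the 4 remaining scalings, where its ratio lay between 0.17 and 0.26. Both calls of miR-24-2-5p were lost with a Z-score threshold corrected for all listed miRNAs (Bonferroni) and with a fold threshold of 2. miR-24-1-5p had 6, 5 and 2 reads. Its log2 ratio of Dox over SB was −1.12 with an interval from −4.52 to 1.49, so that its direction was not determined.

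Counted by the criteria, 3 of the 11 arms were lower in SB than in Control, against 30.2% of all listed miRNAs, and 2 were higher, against 15.3%. The count of 3 was near the share of all listed miRNAs. The 3 lower arms were miR-23a-5p, miR-23b-5p and miR-27b-5p, all of them 5p strands. Calls were not counted over all listed 5p or 3p arms, so the split by strand has no share beside it, here and from SB to Dox. From SB to Dox, 8 arms were higher, 5 of them 5p strands, against 41.7% of all listed miRNAs, and 0 were lower, against 17.9%. The arms that were not called in this step were miR-23a-3p, miR-23b-3p and miR-24-1-5p. miR-23a-3p passed the Z-score there (2.60) but not the fold.

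Both comparisons moved with the scaling of the libraries. Scaled to reads on listed miRNAs, the median of all listed miRNAs shifted from −0.19 to 0.04 for SB over Control and from 0.38 to −0.09 for Dox over SB, and higher calls went from 33.7% to 53.4% of the calls in the first and from 70.0% to 42.8% in the second. The 3 arms lower in SB were the same under that scaling, against 20.8% of all listed miRNAs. The arms higher in SB were then 4, against 23.8%, with miR-23a-3p and miR-24-3p in addition to miR-27a-3p and miR-24-2-5p. From SB to Dox, 6 arms were higher under that scaling, against 23.5% of all listed miRNAs, and 2, the guides miR-23a-3p and miR-23b-3p, were lower, against 31.5%. The 6 were miR-23a-5p, miR-23b-5p, miR-27a-5p, miR-27a-3p, miR-27b-5p and miR-27b-3p, so that both miR-24-2-5p and miR-24-3p lost the call. Scaled to miR-26a-5p, 0 arms were higher in SB, against 9.38%, and 5 were lower, against 42.9%, the guides miR-23b-3p and miR-27b-3p being added to the 3 passengers.

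The p-Smad2/3 activation profile of the study, lower in SB and higher again in Dox, was met by miR-23a-5p, miR-23b-5p and miR-27b-5p, or 3 of 11 arms, against 20.9% of all listed miRNAs. The same 3 arms had the profile when scaled to reads on listed miRNAs, with median-of-ratios factors and with TMM factors, where 11.4%, 12.4% and 12.0% of all listed miRNAs had it. Under the scaling of the authors none of the arms had the opposite profile, which 9.67% of all listed miRNAs had. Under those 3 other scalings miR-23a-3p had it, along with 16.9%, 15.6% and 16.2% of all listed miRNAs. Scaled to miR-26a-5p, the guide miR-27b-3p joined the 3 passengers with the activation profile, which 27.7% of all listed miRNAs then had. Both steps use the SB library, so a low value there enters each of them. Over the 6 5p arms the median log2 ratio was −0.46 for SB over Control and 1.67 for Dox over SB, and over the 5 3p arms it was 0.22 and 0.36. For all 325 listed 5p arms the same medians were −0.19 and 0.40, and for all 306 listed 3p arms −0.20 and 0.32.

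**Figure D2:**
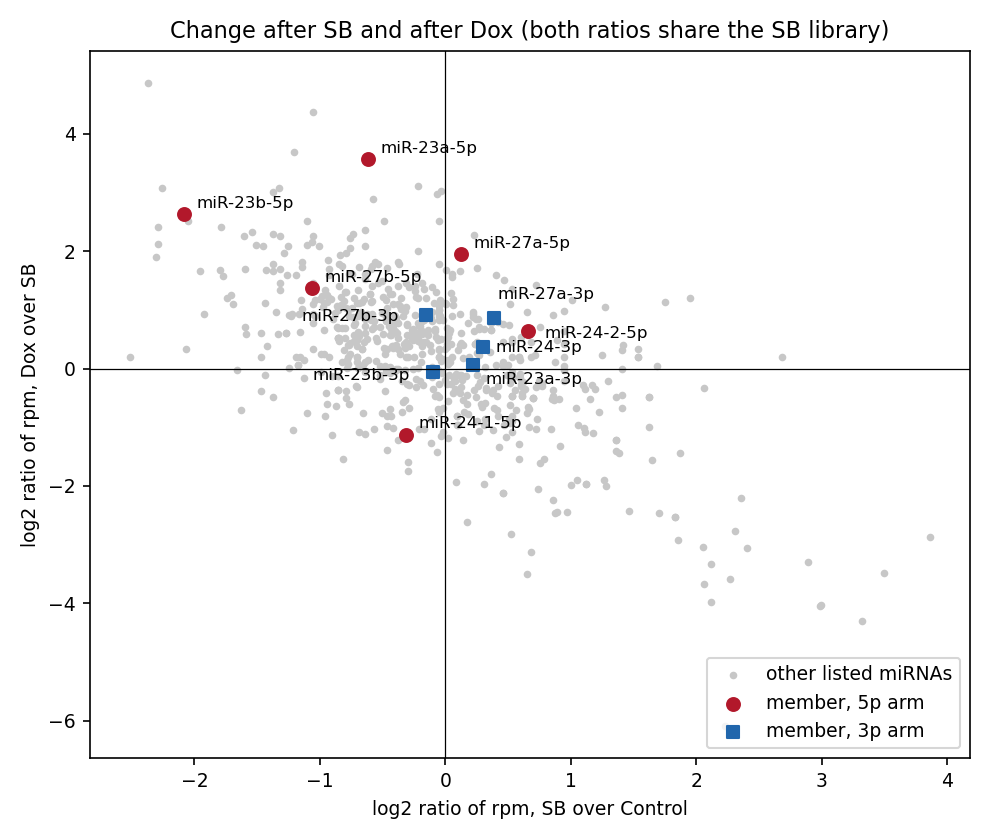
Log2 ratio of Dox over SB against log2 ratio of SB over Control for each listed miRNA, with the family's 5p arms as red circles and its 3p arms as blue squares. miR-23b-5p (−2.09 and 2.64) and miR-23a-5p (−0.62 and 3.57) lie toward the upper left edge of the cloud, and the 3p arms lie between −0.05 and 0.91 on the vertical axis; the axes share the SB library.

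Both strands of a hairpin come from the same precursor and were read in the same library, so their ratio does not change when a library is multiplied by another factor. The share of miR-23a reads on the 5p strand was 3.18% (2.82 to 3.58) in Control, 1.81% (1.55 to 2.09) in SB and 17.3% (16.6 to 18.1) in Dox. The 3p strand outnumbered the 5p strand 30.4 times in Control and 54.4 times in SB but 4.77 times in Dox. The 3p strand nevertheless stayed the major strand in each library.

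For miR-23b the share on the 5p strand was 42.6% (40.4 to 44.7) in Control, 15.7% (13.8 to 17.8) in SB and 54.7% (52.5 to 56.8) in Dox. The order of its strands thus turned: 3p was the major strand in Control and SB, and 5p was in Dox. miR-27b had 18.3% (16.4 to 20.4), 10.7% (9.05 to 12.5) and 14.1% (12.7 to 15.6) on the 5p strand, with no overlap between the intervals. miR-27a had 2.54% (1.87 to 3.38), 2.13% (1.59 to 2.78) and 4.44% (3.82 to 5.13). In each of the 4 hairpins the 5p share was lowest in SB, though for miR-27a the intervals of Control and SB overlapped. Hairpins with such a low were not counted over the files, so the count of 4 has no share beside it. A 5p share lowest in SB was not particular to the family: miR-25, miR-292, miR-294 and miR-295 had it too. In miR-17, miR-151 and miR-154 the 5p share was instead highest in SB. All of these lows and highs rest on the same SB library.

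**Figure D3:**
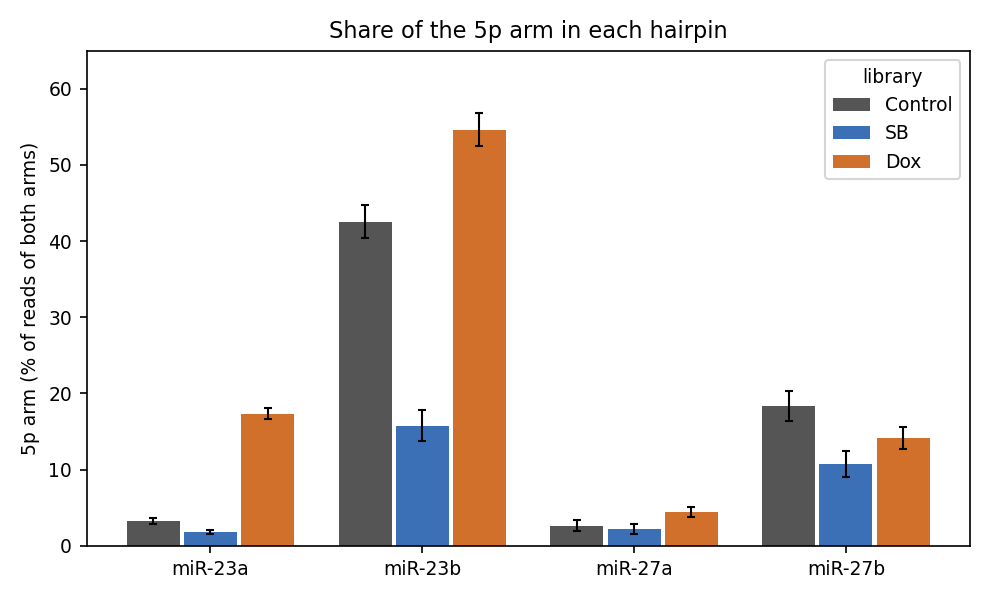
Share of the 5p strand among the reads of both strands (percent, bars from 0) for 4 hairpins in the Control, SB and Dox libraries, with 95% Clopper-Pearson intervals (counting error only). The share of miR-23b is 42.6%, 15.7% and 54.7%, and that of miR-23a is 3.18%, 1.81% and 17.3%.

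The difference between strands was taken as the log2 ratio of Dox over SB of the 5p strand minus that of the 3p strand. It was 3.51 (3.28 to 3.74) for miR-23a, 2.69 (2.44 to 2.94) for miR-23b, 1.09 (0.63 to 1.58) for miR-27a and 0.46 (0.15 to 0.78) for miR-27b. It was above 1 for 3 of the 4 hairpins. Of the 239 hairpins in the files with both strands listed, 22.6% had a difference above 1 and 18% had one below −1. In the 136 hairpins with at least 20 reads of each strand in every library, 19.9% were above 1.

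Among those 136 hairpins, miR-23a had the highest difference and miR-23b the next, followed by miR-292 with 2.57 and miR-186 with 2.51. miR-27a and miR-27b stood at places 23 and 54. The median of the 136 was 0.25, and 95% of them were below 1.62. Over all 239 hairpins miR-23a was again first and miR-23b stood at place 6, behind hairpins with fewer than 20 reads of a strand in some library.

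In the step from Control to SB the same difference was −0.84 (−1.12 to −0.55) for miR-23a, −1.99 (−2.24 to −1.74) for miR-23b and −0.91 (−1.23 to −0.59) for miR-27b. It was −0.26 (−0.87 to 0.35) for miR-27a. The value of miR-23b was the lowest of the 136 hairpins, miR-27b stood at place 9 and miR-23a at place 10 from the lowest, and the median of the 136 was −0.02. In 71 of the 136 hairpins the less abundant strand had the higher ratio of Dox over SB, and the median of its difference from the major strand was 0.14. From Control to Dox the difference of the 5p from the 3p strand was 2.67 (2.48 to 2.87) for miR-23a, 0.83 for miR-27a, 0.70 for miR-23b and −0.45 for miR-27b, the one hairpin of these whose 5p strand gained less than its 3p strand.

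**Figure D4:**
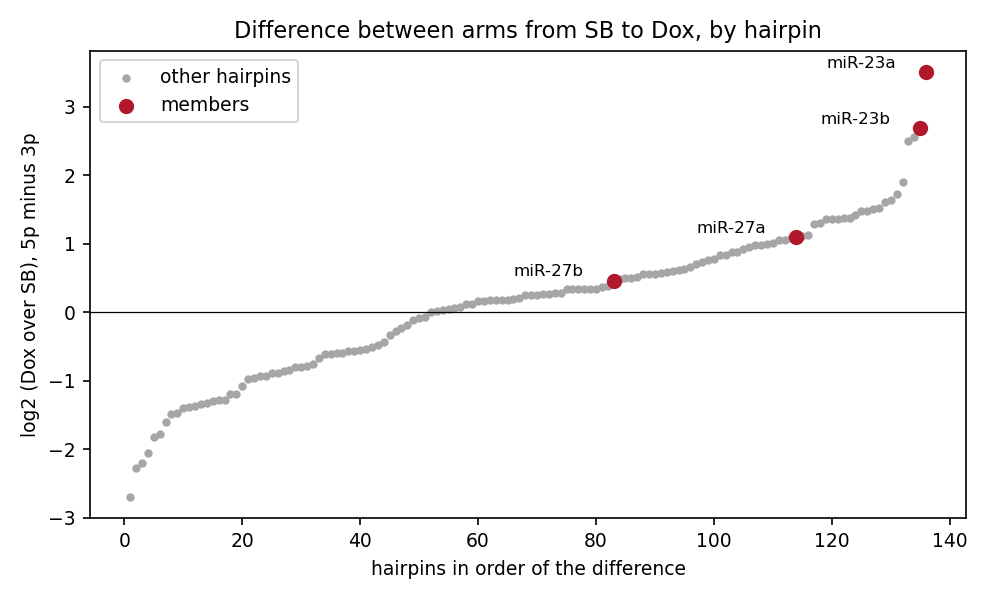
Log2 ratio of Dox over SB of the 5p strand minus that of the 3p strand (vertical axis) for the 136 hairpins with at least 20 reads of each strand in every library, placed in order of this difference. miR-23a (3.51) and miR-23b (2.69) are at the top end, and miR-27a (1.09) and miR-27b (0.46) are in the upper part.

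Arms of the chromosome 8 cluster were compared with their chromosome 13 counterparts. The log2 ratio of SB over Control was higher for the chromosome 8 arm in 5 of 5 pairs, with intervals that did not overlap in 4. For miR-23a-5p and miR-23b-5p the ratios were −0.62 and −2.09, and for miR-27a-5p and miR-27b-5p they were 0.13 and −1.06. The difference between clusters was 1.47 and 1.19 for these passengers and smaller for the guides, 0.32 for miR-23 and 0.54 for miR-27. From SB to Dox the chromosome 8 arm was higher in 4 of 5 pairs, and the intervals did not overlap in 1 of them, miR-23a-5p against miR-23b-5p.

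Dox over Control gave the net change over the treatments, in which the medium also differed. By the criteria 7 of the 11 arms were higher in Dox than in Control, against 30.6% of all listed miRNAs, and 0 were lower, against 19.8%. Scaled to reads on listed miRNAs or to miR-26a-5p, 6 arms were higher, against 20.6% and 19.2%, as miR-23b-5p lost the call, and miR-23b-3p was called lower, against 29.1% and 31.3%. It was also called lower with median-of-ratios and TMM factors, against 26.8% and 26.0% of all listed miRNAs. The log2 ratio was 2.95 (2.76 to 3.14) for miR-23a-5p, 2.08 for miR-27a-5p, 1.29 for miR-24-2-5p, 1.25 for miR-27a-3p and 0.28 for miR-23a-3p. On chromosome 13 it was 0.76 for miR-27b-3p, 0.55 for miR-23b-5p, 0.31 for miR-27b-5p and −0.15 for miR-23b-3p. miR-23a-5p thus ended 7.73-fold above Control, while miR-23b-5p ended 1.47-fold above it. The median of all listed miRNAs was 0.19.

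The chromosome 8 share of the reads of a pair of counterparts moved accordingly. miR-23a-5p made up 23.6% of the reads of miR-23a-5p and miR-23b-5p in Control, 46.2% in SB and 62.0% in Dox. Of the miR-27 passenger reads, miR-27a-5p held 13.9%, 26.9% and 35.6%. The shares of the guides shifted less: miR-23a-3p held 87.4%, 89.7% and 90.4% of the miR-23 guide reads, and miR-27a-3p held 58.2%, 66.9% and 66.1% of the miR-27 guide reads.

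In every library miR-23a-3p, miR-24-3p, miR-27a-3p and miR-27b-3p stood in this order at the top of the family. Levels of different strands are read levels, since strands differ in how well adaptors are joined to them. In Control and SB, miR-27b-3p and miR-23b-3p were next to each other with overlapping intervals. In SB the levels of miR-23b-5p, miR-23a-5p, miR-27b-5p and miR-24-2-5p followed each other with each interval overlapping the next. In Dox miR-23a-5p had moved up to the level of miR-27b-3p, with which its interval overlapped, and miR-23b-5p stood above miR-23b-3p.

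The hairpins of miR-181c and miR-181d, from a transcript that the study examined as a target of Smad2/3, lie on the same chromosome as miR-23a, 29556 bases before it and on the other strand. Their listed arms had log2 ratios of SB over Control between −1.38 (miR-181d-5p) and −0.76 (miR-181c-3p) and of Dox over SB between 1.35 (miR-181c-5p) and 3.69 (miR-181d-3p). By the distance of the pair of ratios, SB over Control and Dox over SB, miR-181d-3p was also the listed miRNA nearest to miR-23a-5p, at 0.60, among 448 outside the family with at least 100 reads. It had 22 reads in SB. No miRNA stood within 0.5 of miR-23a-5p.

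The miRNAs nearest to miR-23b-5p by the same distance were miR-485-3p at 0.30 and miR-92a-2-5p at 0.47, and no other stood within 0.5. The nearest to miR-23a-3p was miR-26a-5p, which the study used as a reference in qPCR, at 0.02, with 647 rpm in Control, 766 rpm in SB and 798 rpm in Dox. For the guides, the number of miRNAs within 0.5 was 98 for miR-27b-3p, 64 for miR-23b-3p, 55 for miR-23a-3p, 50 for miR-24-3p and 32 for miR-27a-3p. For the other passengers with at least 100 reads it was 43 for miR-27b-5p, 18 for miR-24-2-5p and 6 for miR-27a-5p, so that the ranges of guides and passengers overlapped. With only 3 libraries this likeness rests on 2 ratios.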

How the data were processed

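According to the methods, the authors clipped adaptors with the FASTX toolkit, discarded reads of 16 bases or fewer and used Bowtie 0.12.7 without mismatches against the mature and then the hairpin sequences of miRBase. A read that fitted several miRNAs went to the one of closest length or to each of them. A miRNA was listed from 10 reads upward, summed over the conditions, and 2 sequencing runs were pooled per library. The deposited values are RPM, brought by the authors to a library size of 1000000 reads.

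The files hold 2079 values, and 100% were within 0.01 of a whole number of reads once divided by the rpm of 1 read, found from the gaps between low values. These reads gave intervals and Z-scores. Fold changes divided rpm by rpm, with no pseudocount. No count model was fitted, as no condition had a replicate. Analysis used Python 3.11.15, scipy 1.17.1 and pandas 2.3.3, and calls and intervals were tested on simulated reads. Hairpin positions and sequences were those of RefSeq (GRCm38.p6) and GENCODE M21. Of the listed miRNAs, 516 (74.5%) matched a RefSeq mature sequence, too few for a check of GC content over the files, which is void for that reason.

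All listed arms of the family are reported. Other miRNAs were named as neighbours in position or in the ratios, as hairpins with arm differences near those of the family, or as the study's reference. Some hairpins were named as examples of a 5p share lowest or highest in SB. The arms and lists were chosen with earlier results of these data known. Alternatives were 5 other scalings, 1 rpm added, other fold and Z thresholds and minimum read numbers.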

Additional observations from a re-analysis of the deposited data

How the results depend on the processing

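Under the 5 other scalings, 1 rpm added, 2 other fold thresholds, 2 other Z-score settings and a minimum of 100 reads, the number of arms lower in SB stayed between 2 and 5, the latter with the libraries scaled to miR-26a-5p. The share of all listed miRNAs called lower ran from 9.67% with a fold threshold of 2, where 2 arms were called, to 42.9% when scaled to miR-26a-5p or on fold alone. The number higher in SB, 2 as reported, was 0 when scaled to miR-26a-5p (against 9.38% of all listed miRNAs) or with a fold threshold of 2 (against 7.07%). It was 1 with a fold threshold of 1.5 (miR-24-2-5p, against 11.1%) or a Bonferroni threshold for the Z-score (miR-27a-3p, against 8.95%). Under the 4 remaining scalings it was 4, against 17.7% to 23.8%. The number higher in Dox than in SB was 4 with a fold threshold of 2, against 22.2% of all listed miRNAs, and between 6 and 8 otherwise. In those other settings the share of all listed miRNAs lay between 23.5% (reads on listed miRNAs, 6 arms) and 52.5% (fold alone, 8 arms). Under the other scalings, a check chosen after seeing the data, 6 or 7 arms were higher in Dox than in Control, against 19.2% to 26.0% of all listed miRNAs. miR-23b-5p and miR-27b-5p kept the activation profile in all of these settings, and miR-23a-5p in all but the fold threshold of 2. The log2 ratio of Dox over SB changed sign for 1 called arm, miR-24-3p, at −0.11 (reads on listed miRNAs), −0.019 (median of ratios) and −0.024 (TMM). For miR-23a-5p it ran from 3.10 to 3.51 and for miR-23b-5p from 2.17 to 2.58. The number of all listed miRNAs with the profile was 145 as reported, 41 with a fold threshold of 2, 215 on fold alone and, under other scalings, 79 (reads on listed miRNAs), 83 (TMM), 86 (median of ratios), 109 (quantile normalization) and 192 (miR-26a-5p). The 5p shares moved within their counting intervals under 1 rpm added and quantile normalization in all 24 values. The number of family hairpins with a strand difference above 1 was 3 as reported, with at least 20 reads and under quantile normalization. It was 2 with 1 rpm added or with at least 100 reads of each strand in every library, where 13 of all 62 such hairpins were above 1. With other cutoffs, 3 family hairpins were above 0.5 and 2 were above 2. Under 100 reads stood behind miR-24-1-5p in all libraries, miR-27a-5p in Control and SB and miR-24-2-5p in Control. No paired analysis was possible because each condition had 1 library.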
